A study of Drosophila melanogaster with 6 samples.

Results

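The genes described here are the core of the ecdysone response in Drosophila melanogaster, chosen by name: the hormone receptor subunits EcR and usp, the early response genes br, Eip74EF and Eip75B, the nuclear receptor genes Hr3, Hr4, Hr39 and ftz-f1, and Eip93F. Of these 10 genes, 9 were found among the 15796 genes of the count table, and all 9 had enough counts to be tested among 10705 genes. The identifier that the reference table gives for br was not among the table's identifiers, so br was not analysed here. Some identifiers of the count table had no match in the reference table, and br may be counted under one of them. RNA came from fat body, the larval organ of nutrient storage and protein secretion, of larvae in the late 3rd instar, with strain w1118 given for every library. The 3 control libraries were from R4-Gal4/+ larvae, which carry the fat body driver alone, and the 3 AKH libraries from UAS-AKH/+; R4-Gal4/+ larvae, in which that driver also expresses the adipokinetic hormone. All 6 libraries therefore carried the driver. The sources used here do not say how larvae were staged, whether they were pooled, or whether libraries of a group came from separate larvae, so p-values reflect the spread among these 6 libraries only, and part of that spread may be technical.

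Ecdysone is converted to its active form, 20-hydroxyecdysone, in tissues such as the fat body and binds the heterodimer of EcR and usp. The pulse of hormone at the end of larval life starts puparium formation. It induces early genes such as Eip74EF and Eip75B directly, and a following set, often called early-late genes, that includes Hr3, Hr4 and Eip78C. Once the titre falls in the prepupa, Hr3 activates ftz-f1, which prepares tissues for the next pulse, and Eip93F then acts in the later steps of metamorphosis. In the fat body this sequence precedes the release and remodelling of the larval cells.

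One library stood apart before any group was compared. Control replicate 2 held 62.5 CPM (counts relative to a TMM-scaled library total) of Hr4 and 15.2 CPM of Hr3, against at most 6.71 and 2.16 CPM in the other 5 libraries. The libraries held 29803513 to 33150911 counts each, so depth was similar. Control replicate 2 also had the highest summed level of midgut markers and, with AKH replicates 1 and 2, more RNA of the male germline than the remaining libraries. Those values stand beside the results below, and the log2 fold change of each of the 9 genes is given with and without this library. In bulk RNA, fewer cells of a type and less RNA per cell cannot be told apart.

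Both receptor genes were expressed in all libraries, and usp varied the least of the 9 genes. EcR (FBgn0000546), which encodes the hormone-binding subunit, was at 88.0, 70.9 and 102.1 CPM in control replicates 1 to 3 and at 107.0, 89.3 and 99.7 CPM in AKH replicates 1 to 3. Its partner usp (FBgn0003964), the fly relative of the vertebrate retinoid X receptor, was at 33.7, 35.6 and 33.1 CPM in controls and at 35.6, 31.7 and 34.8 CPM in AKH libraries. The groups overlapped for both genes, and control replicate 2 was the lowest library for EcR. The highest library exceeded the lowest 1.51-fold for EcR and 1.12-fold for usp, and on the log2 scale 48.8% of all tested genes varied more than EcR and 96.6% more than usp. Log2 fold changes of AKH against control were 0.18 (SE 0.15) for EcR and -0.0039 (SE 0.073) for usp, with edgeR quasi-likelihood adjusted p = 0.596 and 0.986. Without control replicate 2 they were 0.036 and 0.012.

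Of the early genes, Eip74EF varied about as much as EcR, at 1.49-fold from lowest to highest library, and Eip75B more, at 1.80-fold. Eip74EF (FBgn0000567), an ETS-domain transcription factor gene, was at 98.8, 129.0 and 105.0 CPM in control replicates 1 to 3 and at 89.4, 86.4 and 97.2 CPM in AKH replicates 1 to 3. All 3 AKH libraries lay below all 3 controls, although control replicate 1 and AKH replicate 3 were almost equal. Eip74EF alone of the 9 genes showed no overlap between groups, a state seen in 24.3% of all tested genes, and in this direction in 13.4%. Its log2 fold change was -0.29 (SE 0.12), with edgeR adjusted p = 0.280, and -0.18 without control replicate 2. Its order rests on scaling, since by library totals or by RPKM, the authors' reads per unit of gene length and library size, control replicate 3 fell among the AKH libraries.

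Eip75B (FBgn0000568) encodes a haem-binding nuclear receptor that restrains Hr3. It was at 101.5, 122.8 and 68.3 CPM in control replicates 1 to 3 and at 90.5, 112.4 and 71.6 CPM in AKH replicates 1 to 3. Replicate 2 was the highest and replicate 3 the lowest in each group, and the groups covered nearly the same range. The log2 fold change was -0.092 (SE 0.25, edgeR adjusted p = 0.897), and it was 0.093 without control replicate 2.

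**Figure D1:**
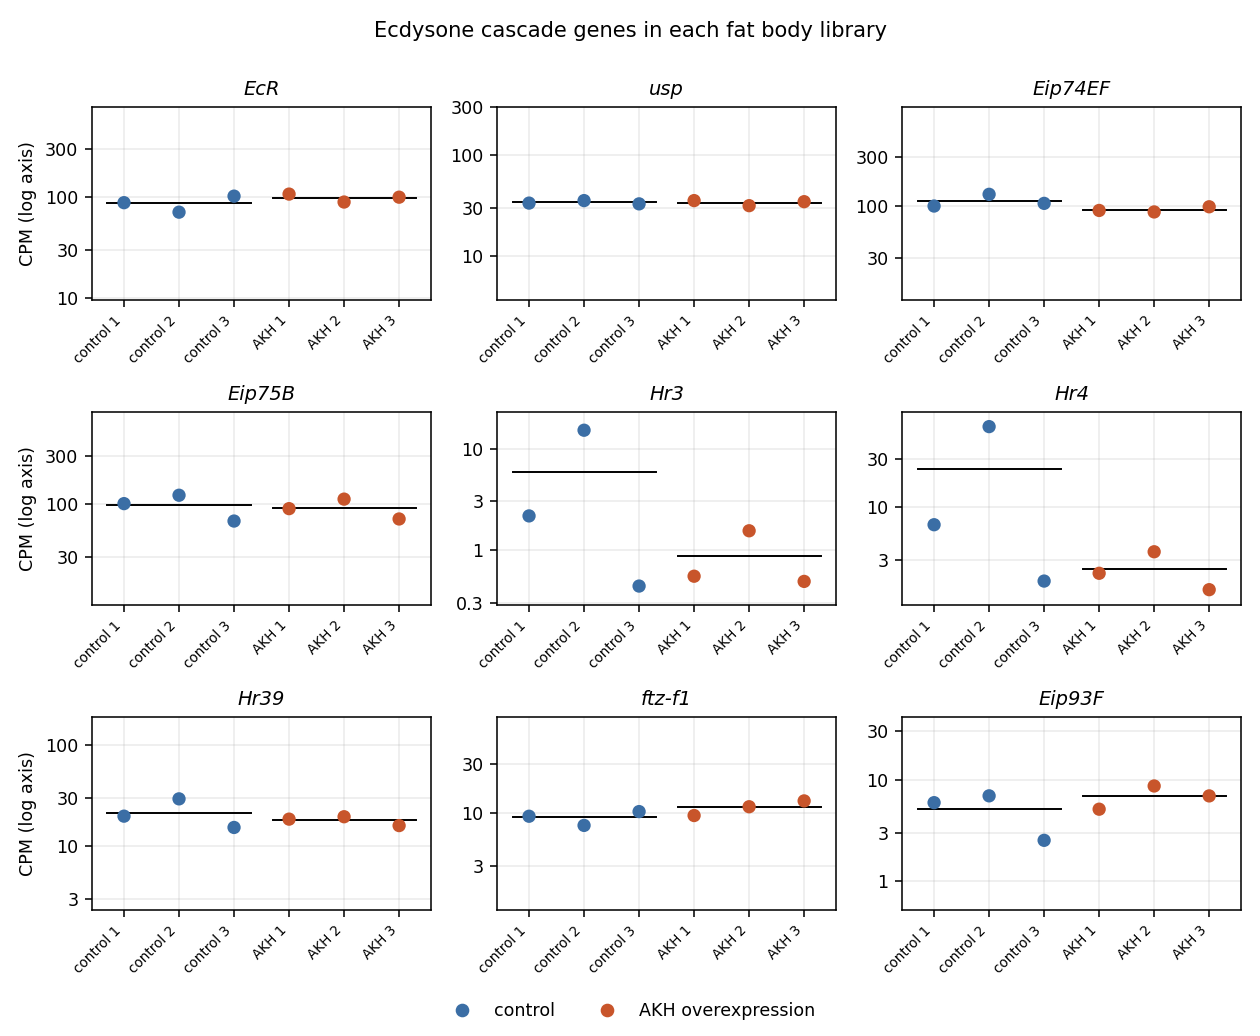
Level of each of the 9 ecdysone cascade genes in each library, in CPM on log axes of equal span, with control libraries in blue, AKH overexpression in orange and group means as black lines. Hr3 and Hr4 reach 15.2 and 62.5 CPM in control 2, whereas usp stays between 31.7 and 35.6 CPM.

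Hr4 and Hr3 showed the widest differences between libraries. Hr4 (FBgn0264562), an orphan nuclear receptor that dampens early genes and helps induce ftz-f1, had 208, 2022 and 51 counts in control replicates 1 to 3 and 73, 120 and 44 counts in AKH replicates 1 to 3. These correspond to 6.71, 62.5 and 1.86 CPM in controls and 2.22, 3.63 and 1.53 CPM in AKH libraries. Control replicate 2 was 9.32-fold above the next library, control replicate 1, and only 0.14% of tested genes had a larger gap between their highest and next library. Control replicate 3 was within the range of the AKH libraries, so the groups overlapped. The log2 fold change was -3.27 (SE 1.26, edgeR adjusted p = 0.247). Without control replicate 2 it was -0.81 (SE 0.60, edgeR adjusted p = 0.496), so that 1 library carried most of the difference.

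Hr3 (FBgn0000448), the fly relative of vertebrate ROR receptors and an activator of ftz-f1, had 67, 491 and 12 counts in control replicates 1 to 3 and 18, 51 and 14 counts in AKH replicates 1 to 3. In CPM it was at 2.16, 15.2 and 0.438 in controls and at 0.548, 1.54 and 0.487 in AKH libraries. Its libraries took nearly the same order as those of Hr4, and control replicate 2 stood 7.03-fold above control replicate 1. The log2 fold change was -2.78 (SE 1.24, edgeR adjusted p = 0.312) with 6 libraries and -0.61 (SE 0.82, adjusted p = 0.720) without control replicate 2. Within the controls the highest library exceeded the lowest 33.6-fold for Hr4 and 34.7-fold for Hr3; only 0.196% and 0.215% of tested genes had a wider range there. Within the AKH group the same ratios were 2.37 and 3.17.

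Hr39 (FBgn0261239), an orphan receptor related to ftz-f1, was at 19.9, 29.4 and 15.4 CPM in control replicates 1 to 3 and at 18.6, 19.6 and 16.0 CPM in AKH replicates 1 to 3. Control replicate 2 was again the highest and control replicate 3 the lowest, with all AKH libraries between them. The log2 fold change of -0.26 (SE 0.24, edgeR adjusted p = 0.642) became 0.021 without control replicate 2.

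The late-acting genes did not share this order. ftz-f1 (FBgn0001078) was at 9.22, 7.49 and 10.3 CPM in control replicates 1 to 3 and at 9.37, 11.4 and 13.1 CPM in AKH replicates 1 to 3. Control replicate 2, which had the most Hr3 and Hr4, had the least ftz-f1. The groups overlapped through AKH replicate 1 and control replicate 3, and the log2 fold change was 0.33 (SE 0.17, edgeR adjusted p = 0.376), or 0.20 without control replicate 2. Eip93F (FBgn0264490), a helix-turn-helix factor gene of metamorphosis, was at 5.93, 6.93 and 2.52 CPM in control replicates 1 to 3 and at 5.11, 8.67 and 6.92 CPM in AKH replicates 1 to 3. Control replicate 3 alone was low, and AKH replicate 2 was the highest. Its log2 fold change was 0.42 (SE 0.39, edgeR adjusted p = 0.637). Leaving out 1 library moved it from 0.10, without control replicate 3, to 0.69, without control replicate 2, and it was not called in any of these fits.

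edgeR thus called 0 of the 9 genes at an adjusted p under 0.05, where it called 3.77% of all tested genes. DESeq2 also called 0, against 8.26% of all genes it tested, and limma-voom 0, against 3.48%. Only Hr4 had an unadjusted edgeR p under 0.05, as did 18.0% of all tested genes. Of the 9 genes 6 had a negative log2 fold change, and their median was -0.092, beside 0.016 over all tested genes. The median range within controls was 0.85 on the log2 scale for the 9 genes and 0.35 for all tested genes; within AKH libraries it was 0.48 and 0.29. A missed call here does not show equal expression, because the spread of Hr3 and Hr4 within controls gave standard errors above 1 on the log2 scale.

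**Figure D2:**
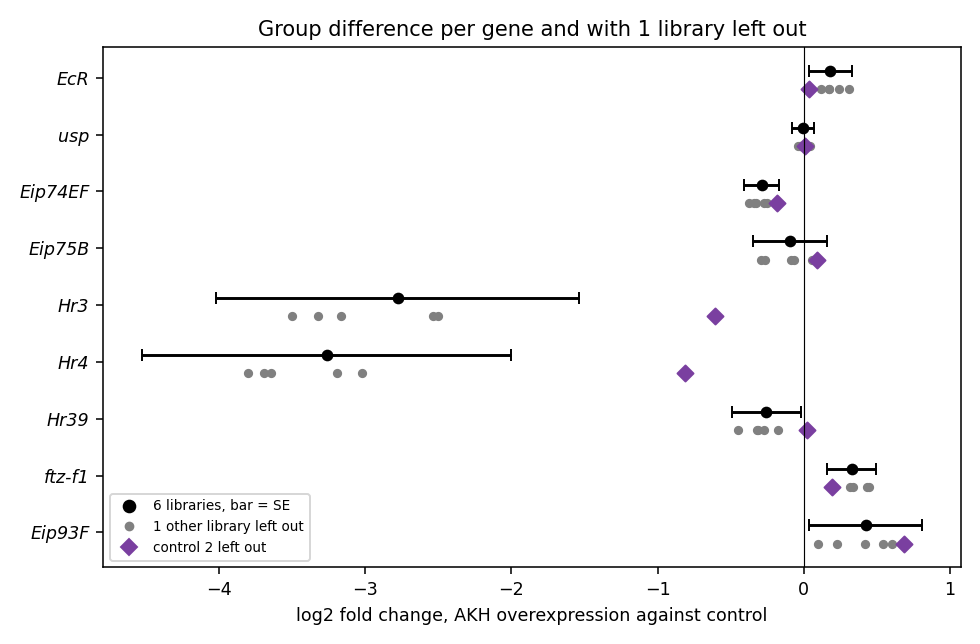
Log2 fold change of AKH overexpression against control for each gene, with all 6 libraries (black, bars are SE) and with 1 library left out (grey; purple where control 2 is left out). Hr4 moves from -3.27 to -0.81 and Hr3 from -2.78 to -0.61 when control 2 is left out, and the other 7 genes lie between -0.45 and 0.69 whichever library is left out.

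Per length, the genes fell into a high and a low tier. Mean RPKM over the 6 libraries was 17.6 ± 1.82 (SD, n = 6) for EcR, 17.3 ± 3.32 for Eip74EF, 16.9 ± 5.12 for Eip75B and 12.3 ± 1.15 for usp. The ranges of these neighbours overlapped, so their order is not resolved. Hr39 followed at 5.13 ± 1.66 RPKM, with its highest library below the lowest of usp and its lowest above the highest of ftz-f1. The mean RPKM was 1.99 ± 0.357 for ftz-f1, 1.52 ± 2.87 for Hr4, 0.781 ± 0.307 for Eip93F and 0.662 ± 1.16 for Hr3. In control replicate 2 alone Hr4 reached 7.35 RPKM and Hr3 3.01 RPKM, above ftz-f1 at 1.59 RPKM.

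Several other genes that ecdysone is known to induce were also highest in control replicate 2, but not all were. Eip63E and ImpL2 were highest in AKH replicate 2, Cth in AKH replicate 1 and Eig71Ee in AKH replicate 3. Eip78C, an early-late nuclear receptor gene, was at 10.2, 33.6 and 1.28 CPM in control replicates 1 to 3 and at 5.57, 10.6 and 0.939 CPM in AKH replicates 1 to 3. Blimp-1, whose product delays ftz-f1, was at 2.29, 8.69 and 0.0365 CPM in controls and at 0.639, 1.90 and 0.0348 CPM in AKH libraries. In both genes control replicate 2 was the highest library and replicate 3 of each group the lowest pair. AKH replicate 2 was slightly above control replicate 1 for Eip78C, whereas Blimp-1 took the order of Hr4 from control replicate 2 down to AKH replicate 1. Blimp-1 had 1 count in control replicate 3 and 1 count in AKH replicate 3, so the order of these libraries is not resolved. E23, an ABC transporter gene that limits the ecdysone response, was at 22.4, 52.6 and 9.38 CPM in controls and at 16.8, 20.1 and 6.47 CPM in AKH libraries.

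The ecdysone-inducible genes ImpE1, ImpE2 and ImpE3, first described in imaginal discs, took the same order as Hr3. ImpE2 was at 139.7, 254.0 and 26.8 CPM in control replicates 1 to 3 and at 70.0, 78.0 and 31.0 CPM in AKH replicates 1 to 3, and control replicate 2 exceeded control replicate 3 by 9.47-fold. Among the 38 tested genes of the cascade and of the lists of ecdysone-regulated factors, ecdysone-induced proteins and hormone handling, 9 differed at least 4-fold between their highest and lowest library. Control replicate 2 was the highest in 8 of these 9, the exception being Eig71Eg, a late gene at 0.109 to 1.19 CPM. Over all 1836 tested genes that varied as widely, it was the highest in 42.5%. Replicate 3 of both groups formed the lowest pair in 9 of the 9, against 24.4% of the 1836. Over all 38 genes, whatever their range, control replicate 2 was the highest in 14 (36.8%), beside 19.8% of all tested genes. Replicate 3 of both groups was the lowest pair in 11 of them (28.9%), beside 8.78%. The 4-fold cut keeps genes by these same values, and Hr3 and Hr4 are among the 9. The counts among the 9 are thus a description only.

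The order control 2, control 1, AKH 2, AKH 1 and then replicate 3 of both groups appeared in 7 of these 9 genes. It appeared in 8 of all 38 (21.1%), in 2.07% of the 1836 widely varying genes and in 0.925% of all tested genes. It was picked after the values were seen and is given as a description. The 9 wide-ranging genes include transcripts that, by the known sequence of the response, rise near puparium formation. Most were most abundant in control replicate 2, next in control replicate 1, and least abundant in control replicate 3 and AKH replicate 3. By these wide-ranging genes alone, the libraries that look later are 2 controls, and the ones that look earlier come from both groups. Over the 9 cascade genes, control replicate 1 and AKH replicate 2 had the same mean rank of 3.33. Eip75B and Eip78C were higher in AKH replicate 2 than in control replicate 1. The late-acting genes gave another order, with ftz-f1 lowest in control replicate 2 and Eip93F highest in AKH replicate 2. The labels give a single stage for all libraries, and an order in developmental time cannot be told apart here from other differences between the dissected samples.

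**Figure D3:**
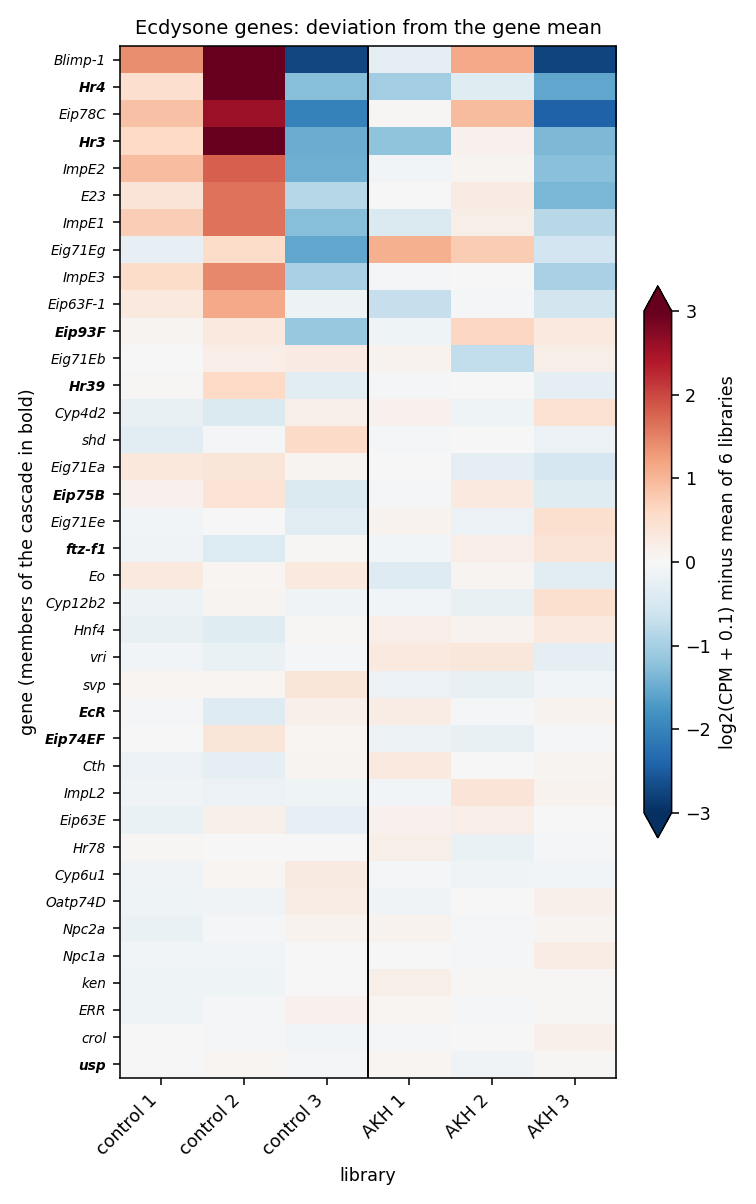
Deviation of log2(CPM + 0.1) from each gene's mean over 6 libraries for 38 tested ecdysone genes, sorted by range, with cascade genes in bold and colours capped at the ends of the scale. Control 2 is the highest library in 8 of the 9 genes of at least 4-fold range, and control 3 and AKH 3 are the lowest there. Over all 38 genes control 2 is the highest in 14.

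Markers of later steps followed in part. Control replicate 2 was the highest library in 4 of the 6 tested prepupal and pupal genes, ple, Ddc, Edg91 and Pu. Over all tested genes it was the highest in 19.8%. For Pu it was almost equal to AKH replicate 1. Pcp was instead highest in AKH replicate 1, at 9.83 CPM against 7.24 CPM in control replicate 2, and CHES-1-like in control replicate 3. The untested pupal cuticle genes Edg78E and Edg84A had at most 4 counts and 1 count in any library, including control replicate 2, which had 2 and 1. The tyrosine hydroxylase gene ple, needed for tanning of the cuticle, was at 1.39, 6.40 and 0.511 CPM in control replicates 1 to 3 and at 0.0913, 0.393 and 0.348 CPM in AKH replicates 1 to 3. Ddc, the dopa decarboxylase gene of the same pathway, was at 3.22, 3.84 and 1.68 CPM in controls and at 1.22, 1.87 and 1.46 CPM in AKH libraries. Both genes were highest in control replicate 2 and next in control replicate 1. Edg91, an ecdysone-dependent cuticle gene, was at 2.81, 4.61 and 3.90 CPM in controls and at 1.07, 2.24 and 1.15 CPM in AKH libraries, without overlap between groups. Pu, the GTP cyclohydrolase gene of pigment and cofactor synthesis, was at 263.6, 326.6 and 78.2 CPM in controls and at 326.3, 217.5 and 82.9 CPM in AKH libraries, with replicate 3 lowest in each group. In the prepupal and pupal list edgeR called 0 of 6 tested genes. Before adjustment 3 had a p under 0.05, beside 18.0% of all tested genes. DESeq2 called 2, beside 8.26% of all genes it tested, and limma-voom 0. The list's median log2 fold change was -0.52.

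The larval serum protein genes, Fbp1 and the glue genes of the 3rd instar were abundant everywhere. The summed level of the fat body list, which includes the larval serum proteins and Fbp1, was 339981 to 481349 CPM, lowest in control replicate 2 and highest in control replicate 3. Its defining members Lsp1gamma and Fbp1 were present in all libraries, with Lsp1gamma at 80125 to 118557 CPM. Summed salivary gland markers, led by the glue genes that ecdysone first induces and later shuts off, were at 29059.7, 24638 and 27038 CPM in controls and at 24214, 19714 and 30322 CPM in AKH libraries. edgeR called 0 of 10 fat body and 0 of 11 salivary gland genes. Before adjustment 2 and 1 had a p under 0.05, beside 18.0% of all tested genes. The 2 fat body genes were the yolk protein genes Yp2, at 0.211 to 1.64 CPM, and Yp3, not the abundant larval genes. DESeq2 called 1 gene of each list, Yp2 and Sgs5bis, and limma-voom called 0.

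Markers of other tissues moved in part with the ecdysone genes. Summed midgut markers were at 3151, 4558 and 1648 CPM in control replicates 1 to 3 and at 18.7, 780.9 and 32.6 CPM in AKH replicates 1 to 3. Within controls this sum ran in the order of Hr4 and Hr3, highest in control replicate 2 and lowest in control replicate 3. The sum was higher in control replicate 3 than in AKH replicate 1, and Hr4 was at 1.86 and 2.22 CPM in these libraries. In controls the sum was mostly that of Jon65Aiv, at 1770, 2492 and 904 CPM in replicates 1 to 3. It therefore says little about other genes of the list. Npc2f and Mur29B were lower in control replicate 3 than in AKH replicate 1, with Npc2f at 10.5 and 11.2 CPM. Most other tested genes of the list were higher in control replicate 3. Single midgut genes differed. The untested Mal-A1 had 61, 1036 and 3 counts in controls and 5, 8 and 4 in AKH libraries, the library order of Hr3. Jon25Biii was instead highest in control replicate 3, at 15.2 CPM against 7.76 CPM in control replicate 2. Summed testis and male germline markers were at 22.5, 111.0 and 24.7 CPM in controls and at 84.9, 116.1 and 19.4 CPM in AKH libraries. AKH replicate 2 matched control replicate 2 in these markers and had 3.63 CPM of Hr4 against 62.5. Of the 21 midgut genes 7 had no count in AKH replicate 2, 2 had none in AKH replicate 1 and 2 in AKH replicate 3, and each had counts in every control. The part of carried midgut or other tissue in the levels of the ecdysone genes was not tested.

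**Figure D4:**
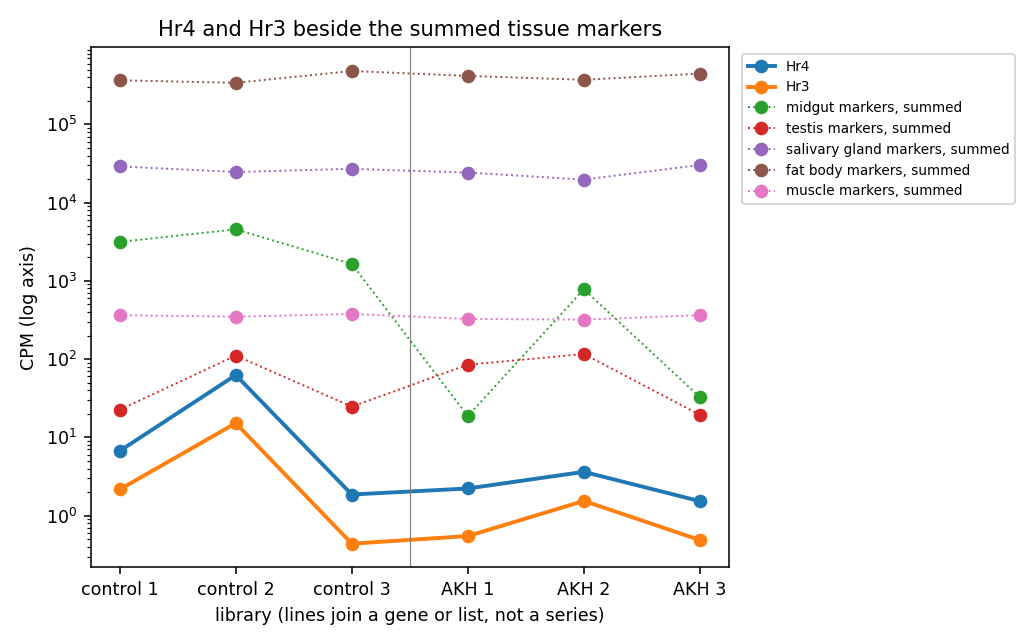
CPM of Hr4 and Hr3 (solid) and summed CPM of tissue marker lists (dotted) in each library, on a log axis; lines only join points of one gene or list. Hr4 is 62.5 CPM in control 2 and 3.63 CPM in AKH 2, where testis markers are 111.0 and 116.1 CPM.

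Larval cuticle markers also differed widely between libraries. Their summed level was 101.9, 67.5 and 74.9 CPM in control replicates 1 to 3 and 170.2, 15.6 and 91.7 CPM in AKH replicates 1 to 3. Summed levels of the muscle, haemocyte, trachea and disc, and nervous system lists lay within narrower ranges, at 319.5 to 377.4, 1319 to 2036, 232.5 to 284.9 and 314.6 to 428.2 CPM. The muscle and nervous system sums were mostly those of Tm1, at 203.0 to 247.0 CPM, and Syt1, at 231.8 to 366.3 CPM. The haemocyte sum was mostly that of Col4a1, at 628.9 to 1094.7 CPM, and vkg, at 324.4 to 603.2 CPM. These sums say little about other genes of their lists, such as brp at 8.24 to 20.5 CPM and NimC1 at 0.604 to 6.42 CPM. edgeR called 0 of 17 midgut genes, 0 of 5 larval cuticle genes, 0 of 21 testis genes, 0 of 9 trachea and disc genes and 0 of 8 nervous system genes. Before adjustment, 4, 0, 1, 3 and 1 of them had a p under 0.05, as did 18.0% of all tested genes. DESeq2 called 2, 0, 0, 2 and 0, where it called 8.26% of all genes it tested, and limma-voom 0 in each. Of 14 muscle genes 10 had a p under 0.05 before adjustment, and of these sls alone, the titin-like gene, had a positive log2 fold change. DESeq2 called 5 and limma-voom 1, and the list's median log2 fold change was -0.61, beside 0.016 over all tested genes. By edgeR the myosin light chain genes Mlc1 and Mlc2 were lower with AKH, at log2 fold changes of -0.96 (SE 0.17) and -0.83 (SE 0.12; edgeR adjusted p = 0.0378 and 0.0180). Of 9 haemocyte genes 4 had a p under 0.05 before adjustment, DESeq2 and limma-voom each called 1, and the median log2 fold change was 0.073. By edgeR NimC1, a phagocytosis receptor gene, fell by 2.48 (SE 0.31, edgeR adjusted p = 0.0116). The call of Mlc1 was lost in all 6 fits without 1 library, that of Mlc2 without control replicate 1 or AKH replicate 1 or 2, and that of NimC1 without control replicate 1 or AKH replicate 3.

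With edgeR, DESeq2 or limma-voom on all 6 libraries, no other tested ecdysone-regulated factor, receptor cofactor or ecdysone-induced gene passed the test between groups. Of 10 other ecdysone-regulated transcription factor genes, 9 receptor cofactor genes and 12 ecdysone-induced genes edgeR called 0, and so did DESeq2 and limma-voom. Before adjustment 2, 1 and 2 of them had an edgeR p under 0.05, beside 18.0% of all tested genes. Their median log2 fold changes were 0.0023, 0.022 and -0.054, but single genes lay far from these medians, mostly with wide errors. The log2 fold change was -2.08 (SE 1.57) for Blimp-1, -1.39 (SE 1.18) for Eip78C and -0.96 (SE 0.68) for E23. It was -1.23 (SE 0.77) for ImpE2, -1.11 (SE 0.68) for ImpE1, -0.95 (SE 0.60) for ImpE3 and -0.93 (SE 0.36) for Eip63F-1. All of these were highest in control replicate 2, but other genes of these lists were not. Hnf4 was at 0.38 (SE 0.12, edgeR adjusted p = 0.156), highest in AKH replicate 3. It was called when library totals replaced the scaling and with limma on log2(RPKM + 1) or log2(RPKM + 0.1). Eig71Eg was at 0.86 (SE 0.79), highest in AKH replicate 1, and svp at -0.33 (SE 0.11), highest in control replicate 3. Among cofactors, tai, the coactivator taiman, was at 64.7, 72.2 and 63.1 CPM in control replicates 1 to 3 and at 59.5, 61.9 and 56.0 CPM in AKH replicates 1 to 3. Hsp83, the chaperone that the receptor needs to bind hormone, was at 838.7 to 936.4 CPM in controls and at 736.4 to 822.3 CPM in AKH libraries, and did not pass the test (edgeR adjusted p = 0.378).

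Genes that handle the hormone in the fat body were expressed in every library. Of 8 genes for uptake, activation and breakdown edgeR, DESeq2 and limma-voom called 0, and edgeR gave 0 of them a p under 0.05 before adjustment. Oatp74D, the ecdysone importer gene, was at 111.2 to 141.7 CPM in controls and at 113.1 to 136.0 CPM in AKH libraries. shd, the enzyme that makes 20-hydroxyecdysone, was at 80.9, 97.9 and 151.6 CPM in control replicates 1 to 3 and at 97.3, 101.6 and 89.6 CPM in AKH replicates 1 to 3. Control replicate 3, the lowest library for Hr3, had the most shd.

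Of 7 tested ecdysone synthesis genes, which act in the prothoracic gland, edgeR, DESeq2 and limma-voom called 0. Before adjustment 2 had an edgeR p under 0.05, beside 18.0% of all tested genes. The reductase gene sro was at 70.5, 71.3 and 95.8 CPM in control replicates 1 to 3 and at 116.1, 92.0 and 128.8 CPM in AKH replicates 1 to 3 (log2 fold change 0.50, SE 0.17, edgeR adjusted p = 0.201). It was called when library totals replaced the scaling and with limma on log2(RPKM + 1) or log2(RPKM + 0.1). The gland hydroxylase gene dib was at 0.742 to 1.96 CPM. Other genes of this list were higher, such as spok at 18.0 to 32.6 CPM and sad at 16.2 to 30.1 CPM. The part of gland tissue in these levels was not tested.

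Among 9 juvenile hormone genes Jheh1, a juvenile hormone epoxide hydrolase gene, fell from 67.9, 75.9 and 92.1 CPM in control replicates 1 to 3 to 31.5, 39.0 and 36.3 CPM in AKH replicates 1 to 3. Its groups were well separated, with a log2 fold change of -1.14 (SE 0.14, edgeR adjusted p = 0.0104). That call was lost without AKH replicate 1, and the other 8 genes were not called. Jhe, the esterase that degrades the hormone, was at 1.32, 1.36 and 4.67 CPM in controls and at 5.48, 8.64 and 6.19 CPM in AKH libraries (log2 fold change 1.47, SE 0.53, edgeR adjusted p = 0.214). The low values were those of control replicates 1 and 2, and Jhe was called only without control replicate 3.

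In the fat body remodelling and cell death list edgeR called 0 of 19 genes. Before adjustment 4 had a p under 0.05, beside 18.0% of all tested genes. DESeq2 called 3, Atg1, Buffy and Dronc, beside 8.26% of all genes it tested, and limma-voom called 0. The matrix protease gene Mmp1 was at 10.1, 33.0 and 8.65 CPM in control replicates 1 to 3 and at 14.2, 16.6 and 10.2 CPM in AKH replicates 1 to 3, so that control replicate 2 was again the highest. Buffy, a Bcl-2 family gene, was at 2.26, 4.39 and 1.79 CPM in controls and at 1.00, 1.12 and 0.869 CPM in AKH libraries (edgeR adjusted p = 0.105). Atg8a, an autophagy gene, was at 210.6 to 266.4 CPM in controls and at 265.6 to 282.8 CPM in AKH libraries.

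Among 6500 genes of at least 5 CPM, the profile over the 6 libraries most like that of Hr4 was CG10912, with a root mean square difference of 0.37 on the log2 scale. CG10912 was at 2.35, 27.6 and 0.401 CPM in control replicates 1 to 3 and at 0.578, 0.695 and 0.487 CPM in AKH replicates 1 to 3. CG11034 and NLaz, a lipocalin gene, followed at 0.52 and 0.57, each with its highest value in control replicate 2 (22.5 and 49.5 CPM). For Eip93F the nearest were CG34377, the neuronal zinc finger gene nerfin-1 and CG32354, at 0.12, 0.18 and 0.19. The neuronal marker brp, at 8.24 CPM in control replicate 3 and 20.5 CPM in AKH replicate 2, had its lowest and highest values in the same libraries as Eip93F. The other nervous system markers did not share both. nSyb, repo, VGlut and ChAT were lowest in AKH replicate 1 and Rdl in control replicate 2. elav was highest in AKH replicate 3 and Syt1 in control replicate 3. The part of nervous tissue in the pattern of Eip93F was not tested. For Hr39 the nearest were bdg, MESR6 and the lysosomal membrane gene Cln7, at 0.055, 0.063 and 0.070.

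Some genes overlap others in the reference annotation, and the sources used here do not state how the authors treated strand. Exons of usp overlap those of Actn and CG4313, and exons of Hr4 overlap those of PIG-K on the opposite strand. PIG-K had 521 to 622 counts in all libraries and 541 in control replicate 2, where Hr4 had 2022. CG12912, whose exons overlap those of Hr3, had at most 1 count in any library.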

How the data were processed

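RNA-seq of larval fat body was used from 3 control and 3 AKH libraries. The authors deposited raw read counts per gene and RPKM values, which are scaled by gene length and library total. The submitters' processing notes name DESeq 1.10.1, HTSeq 0.5.4p3, TopHat2 2.0.9 and Bowtie2 2.0.6 with build BDGP5, without their roles; annotation release and strand setting were not given in the sources used. The reference annotation is of a later build, so no coordinates are given and no sequences were used here. Symbols were found for 15001 of 15681 FlyBase identifiers.

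The test was edgeR 4.0.16 under R 4.3.3 on the counts (default filter, TMM scaling, quasi-likelihood F test of group, no covariate; Benjamini-Hochberg adjustment over 10705 genes, called under 0.05). CPM use TMM-scaled totals, log2 CPM a prior count of 2. In each library 3 counts are 0.0906 to 0.109 CPM. Replicates differed beyond sampling noise (chi-square per degree of freedom 39.3 to 94.3). On counts simulated for this comparison with 10373 genes tested, edgeR found 55% of genes changed by 1 log2 unit and 85% of those changed by 2. Of its calls 7.28% were unchanged genes, against 24% for DESeq2 and 2.99% for limma-voom. Changes were placed only in genes with higher counts, with independent noise and no outlying library or carried tissue. These shares therefore do not give the power over all tested genes of the real data.

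Alternatives were RLE or library-total scaling, no filter, DESeq2 1.42.0, limma-voom (limma 3.58.1), limma on RPKM after log2 with a pseudocount of 1 or 0.1, a block for the replicate number, and each library left out. Genes and lists were chosen with earlier results of these data known. Named beyond the 9 are each list's called, most abundant or widest-ranging genes and the 3 nearest profiles of Hr4, Eip93F and Hr39; the others, such as Eip78C, Eip63F-1, Ddc, Edg91, sls, ImpE1, ImpE3, Mmp1, tai, shd and Oatp74D, were chosen after their values were seen. Figures were drawn with matplotlib 3.10.9.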

Additional observations from a re-analysis of the deposited data

How the results depend on the processing

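No alternative called any of the 9 ecdysone genes, and 118 of 126 alternative values for single genes kept their direction. The 8 that turned were all of small size: usp with library totals (0.0010), log2(RPKM + 1) (0.0095), log2(RPKM + 0.1) (0.011), without control replicate 2 (0.012) and without AKH replicate 2 (0.041), Eip75B without control replicate 2 (0.093) and without AKH replicate 3 (0.055), and Hr39 without control replicate 2 (0.021). Without 1 library, usp ranged from -0.037 to 0.041, Eip75B from -0.29 to 0.093 and Hr39 from -0.45 to 0.021. The log2 fold change of Hr4 was -3.81 to -0.81 and that of Hr3 -3.50 to -0.61, both nearest to 0 without control replicate 2. The count of changed genes over the whole table was 404, 986 with DESeq2 and 144 to 479 without 1 library (272 without control replicate 2). Companion genes called were 4, and 18 with DESeq2, 7 with log2(RPKM + 0.1), and 1 to 9 without 1 library. The share of calls that were higher was 49.5%, and 40.1% with DESeq2. The highest library was the same for all 9 genes under each scaling, and the whole order for 8 with RLE scaling and 4 with library totals or RPKM.

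Same-numbered libraries did not deviate together in every pair (correlations of deviations across genes -0.369, 0.600 and 0.502 for replicates 1 to 3), so the numbers were not taken as pairs. With the replicate block 430 genes were called, 0 of the 9 and 7 companion genes; Hr4 was at -2.21 (adjusted p = 0.237) and Hr3 at -2.04 (adjusted p = 0.208). With 3 libraries a group, the range of Hr3 and Hr4 within controls limits what could be called; their adjusted p lay between 0.0707 and 0.720 over the alternatives. At 12 to 18 counts in 3 libraries, Hr3 was also near its counting limit.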

Other observations

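Cyp18a1, the hydroxylase gene that inactivates ecdysone and is itself induced by it, had too few counts to be tested and followed the same order at the top. It had 14, 48 and 5 counts in control replicates 1 to 3 and 6, 7 and 6 counts in AKH replicates 1 to 3. The salivary gland late gene Eig71Ee was at 2528 to 3187 CPM in controls and at 2850 to 4450 CPM in AKH libraries, while its neighbours Eig71Ef, Eig71Eh, Eig71Ei and Eig71Ej had 0 counts in all libraries. Yp3, a yolk protein gene, was at 673.3, 249.6 and 485.7 CPM in control replicates 1 to 3 and at 256.0, 57.6 and 183.9 CPM in AKH replicates 1 to 3; replicate 2 was the lowest in each group. These genes were chosen after their values were seen, and Cyp18a1 was not tested between groups.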
